A study of Homo sapiens with 9 samples.

Results

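MX1 and MX2, and GBP1 to GBP5 of the guanylate-binding proteins, are interferon-induced large GTPases, and their mRNA was examined in U251 cells, an established human glioblastoma line, after knockdown of PTBP1. The rule takes each row whose symbol equals MX1, MX2, GBP1, GBP2, GBP3, GBP4 or GBP5, whatever its values, but this set of genes was itself picked with earlier results of these data known. All 7 were found among the 22295 entries of the deposited list, of which 19932 are gene symbols and the other 2363 are assembled loci. The data were 9 RNA-seq libraries, 3 from each of 3 groups. The group sh-Luci-3d was infected for 3 days with a control lentivirus whose sh-RNA is directed against luciferase, sh-Ptbp1-3d for 3 days with a lentivirus against PTBP1, and sh-Ptbp1-7d for 7 days with that same virus. All groups shared the lentiviral infection, the M-cherry vector and a change to neuronal induction medium partway, which the cells of day 7 had therefore seen for longer. A single sh-RNA against PTBP1 was used, and none of the 9 libraries is a sh-Luci control of day 7. In every comparison with sh-Ptbp1-7d, the length of the knockdown, the days since infection and the time in the medium cannot be told apart.

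The interferons are secreted proteins that cells release when they sense virus or foreign nucleic acid. Type I interferons signal through IFNAR1, IFNAR2, TYK2 and JAK1 to ISGF3, a complex with STAT2 and IRF9 that binds the interferon-stimulated response element (ISRE) in promoters. Interferon gamma signals through IFNGR1, IFNGR2, JAK1 and JAK2 to transcription from the gamma-activated site (GAS). The MX proteins are dynamin-like GTPases that form rings and block the replication of viruses: MX1 acts broadly and mostly in the cytoplasm, and MX2 is known for restricting HIV-1 and herpesviruses near the nuclear pore. The guanylate-binding proteins hydrolyse GTP, in the case of GBP1 as far as GMP, and they assemble on the membranes of bacteria and parasites inside the cell. GBP1, GBP2 and GBP5 carry a lipid anchor that ties them to membranes. The GBP genes lean to interferon gamma and the MX genes to type I interferon, although both families answer to either. Some of these genes are also known in glioblastoma, where GBP1 was described downstream of the EGF receptor.

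The members lie in 2 clusters. On GRCh38, by GENCODE v29, the GBP genes stand side by side on the minus strand of chromosome 1: GBP3 at chr1:89006666-89022894, GBP1 at chr1:89052319-89065360, GBP2 at chr1:89106132-89150456, GBP4 at chr1:89181148-89198932 and GBP5 at chr1:89258950-89272804. Their relative GBP7 overlaps GBP2 on the same strand, and GBP6 lies beyond GBP5. On the plus strand of chromosome 21, MX2 at chr21:41361943-41409390 is followed directly by MX1 at chr21:41420304-41459214. None of the loci assembled from the reads overlapped either cluster. Promoter windows of 300 bases (250 before to 50 after an annotated start) were available in the RefSeq table for MX1, GBP1, GBP3 and GBP4, 4 of the 7 members, and MX1 has several annotated starts. The ISRE was searched on both strands as TTTCNNTTTC (GAAANNGAAA on the other strand) and the GAS as TTCNNNGAA, which reads the same on both strands. An ISRE match was found for all 4 members, against 3.57% of all 35116 windows in the table. A GAS match was found for GBP3 and MX1, against 7.66% of all windows. These shares are by window, and the 4 members have 6 windows, so MX1 had more chances of a match. The MX1 window at chr21:41425989-41426288 held neither motif, nor did the windows of the relatives GBP6 and GBP7. A match describes letters and is not in itself a binding site. The stretches that hold the ISRE matches are shown because the levels of these genes are compared below. The genes share the motif and not the stretch as a whole. They are RefSeq sequence of GRCh38.p14, written 5′ to 3′ along the gene's strand with the ISRE match in capitals: GBP3 at chr1:89022855-89022884 (minus strand), GBP1 at chr1:89065326-89065355 (minus), GBP4 at chr1:89198937-89198966 (minus), and MX1 at chr21:41420549-41420578 (plus) and, for another start, at chr21:41431834-41431863 (plus).
GBP3: cacttccttgaaagaagtacTTTCAGTTTC
GBP1: cagtgatttgaacgaagtacTTTCAGTTTC
GBP4: tccccacaaagtgcatgtccTTTCAATTTC
MX1: ggaaaccagcgagcagaaatGAAACCGAAA
MX1, another start: ggcttctttgggtcactctgTTTCTCTTTC
GBP1 and GBP3 carried the same 10 letters at the match, and their stretches were identical at 25 of 30 bases. Counted from the RefSeq start of the window, the match lies 3 to 12 bases into the transcript in GBP3 and 118 to 127 bases before the start in GBP1, but the RefSeq and GENCODE starts differ, and by the GENCODE bounds given above both matches lie inside the gene. The GAS match of GBP3, ttccttgaa, sits within the stretch shown, 7 to 15 bases before the RefSeq start. The ISRE match of GBP4 spans its RefSeq start. GBP4 was near 0 FPKM in these cells, unlike MX1, GBP1 and GBP3, whose windows hold the motif too.

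The libraries were first set against their labels. PTBP1, the targeted gene, was at 111, 112 and 124 FPKM (a count of fragments divided by transcript length and by the mapped fragments of the library) in the control libraries, at 66.2, 64.4 and 61.0 FPKM after the knockdown of 3 days and at 49.7, 50.7 and 51.0 FPKM after that of 7 days, with no overlap between groups. The FPKM values summed to between 367412 and 404922 per library. No whole-read steps were found in the values. Sequencing depth is therefore unknown, and counting error cannot be given. Of 8 glioblastoma and astroglial markers, VIM, NES, CD44, SOX9 and EGFR were detected above 1 FPKM while S100B, GFAP and AQP4 had group means below 1 FPKM in every group. The summed FPKM of the list ran from 4374 to 4493 in the control libraries, from 4456 to 4762 at day 3 of the knockdown and from 1243 to 1376 at day 7, mostly through VIM, an intermediate filament gene. Of 11 blood and immune cell markers, 10 had means below 1 FPKM in every group, and CD3E, MS4A1 and AIF1 were listed at 0 in all 9 libraries. That list summed to 10.5 to 11.5, 11.0 to 11.6 and 16.2 to 19.2 FPKM in the 3 groups in turn, nearly all of it from the lysosomal gene CD68. The part of these marker changes in the results at day 7 was not tested. In bulk RNA, a change in the share of cells that express a gene and a change in the RNA per cell cannot be told apart.

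At day 3 the libraries of the knockdown overlapped the control libraries for MX1, MX2, GBP1, GBP2, GBP3 and GBP5, and none of these was called. Most genes gave the same: of all 15551 tested, 2 were called higher and 0 lower. The groups did not overlap in 5.86% of genes to the higher side and 4.93% to the lower. At day 7, MX2, GBP1, MX1 and GBP3 had risen 5.15- to 28.8-fold over sh-Ptbp1-3d. GBP2 and GBP5 were less than 2-fold higher, and GBP4 stayed near 0. Each value below is the FPKM of a library, in the order of replicates 1, 2 and 3. Differences were tested with limma on log2(FPKM + 0.1) across the 15551 genes whose mean reached 0.1 FPKM, with p-values adjusted by Benjamini-Hochberg over all of them. On this scale the fold change of low genes is understated. The knockdown was compared with the control at day 3 (sh-Ptbp1-3d with sh-Luci-3d), and day 7 of the knockdown was compared with its day 3 and with the control. A gene was called when its fold change exceeded 2 and its FDR lay under 0.05 in the first of these, or under 0.01 in the others. The filter on low values was passed by 6 of the 7 members, all but GBP4. The labels do not say whether replicates are separate cultures, so p-values measure the spread between these libraries. For 3 libraries set against 3, the smallest p that an exact permutation test on a single gene allows is 0.1.

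**Figure D1:**
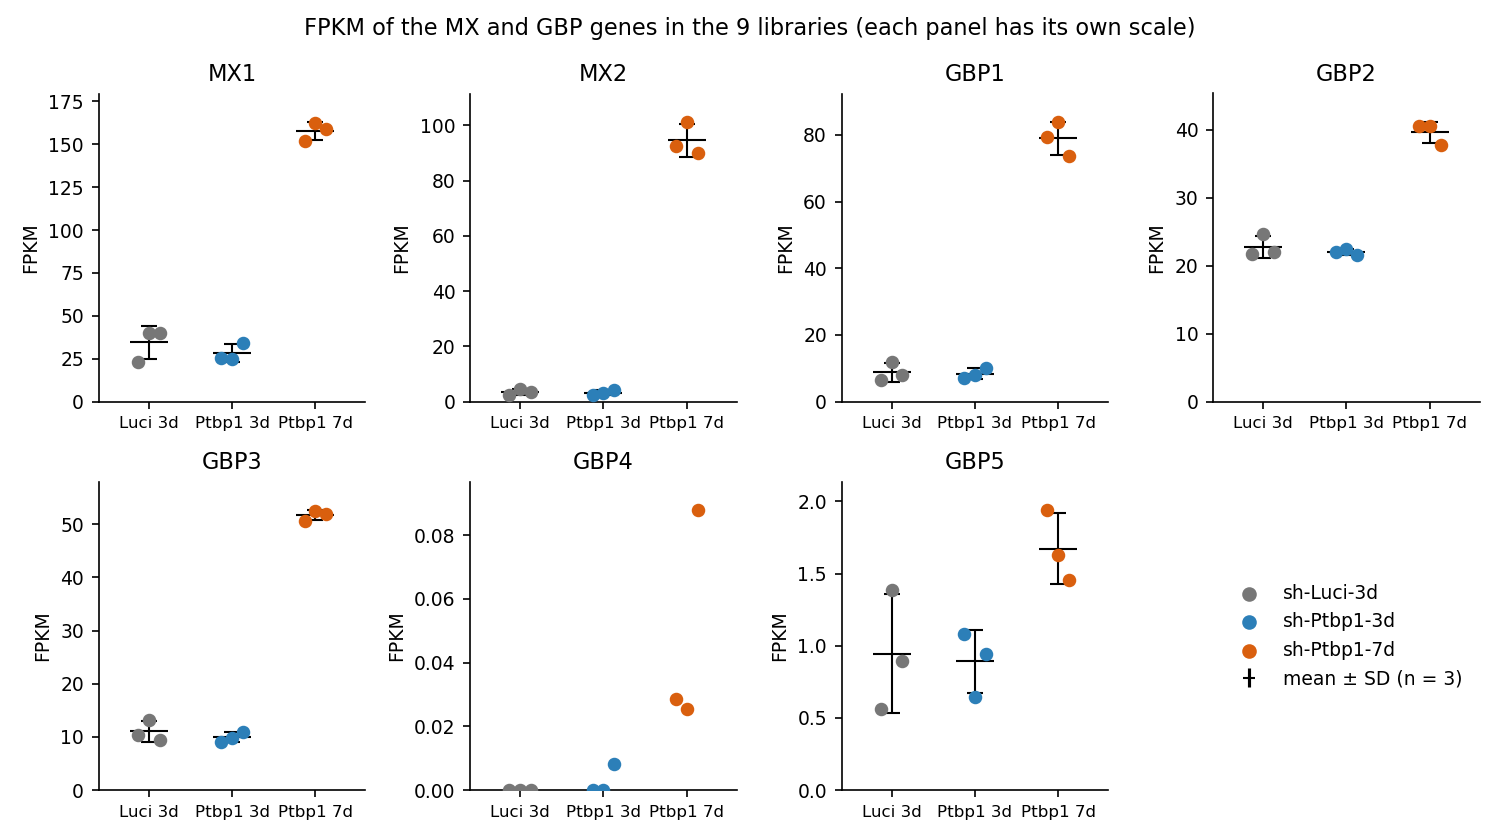
FPKM of each member in the 9 libraries, by group; points are libraries, bars the mean ± SD (n = 3), and GBP4 is drawn without bars. Each panel has its own linear scale from 0. In MX1, MX2, GBP1, GBP2, GBP3 and GBP5 all 3 sh-Ptbp1-7d libraries lie above all libraries of day 3, while sh-Luci-3d and sh-Ptbp1-3d overlap. Of all genes tested, 35.3% had sh-Ptbp1-7d libraries above all of sh-Ptbp1-3d, and 32.8% above all of sh-Luci-3d.

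MX1, the broad antiviral GTPase, was the most abundant member in every group. It stood at 23.4, 40.2 and 39.9 FPKM in sh-Luci-3d, a mean of 34.5 ± 9.64 (SD, n = 3), at 25.6, 24.7 and 34.2 FPKM in sh-Ptbp1-3d (28.2 ± 5.23) and at 152, 163 and 159 FPKM in sh-Ptbp1-7d (158 ± 5.53). The groups of day 3 overlapped, and the lowest library of day 7 was several times above the highest of day 3. At day 3, the knockdown differed from the control in MX1 by -0.26 on the log2 scale (standard error 0.194, 95% interval -0.69 to 0.17, limma adjusted p = 0.801). From day 3 to day 7 of the knockdown it rose by 2.50 (standard error 0.194, 95% interval 2.07 to 2.92, limma adjusted p = 2.36e-06), or 5.64-fold.

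MX2, the relative of MX1 that acts on retroviruses and herpesviruses, began far lower and made the steepest rise among the members tested. Its values were 2.38, 4.42 and 3.56 FPKM in sh-Luci-3d (3.45 ± 1.03, SD, n = 3), 2.41, 3.17 and 4.25 FPKM in sh-Ptbp1-3d (3.27 ± 0.924) and 92.6, 101 and 89.9 FPKM in sh-Ptbp1-7d (94.6 ± 6.03). The highest library of day 3 was at 4.42 FPKM and the lowest of day 7 at 89.9 FPKM. At day 3 the log2 fold change of MX2 against the control was -0.07 (standard error 0.226, 95% interval -0.57 to 0.43, limma adjusted p = 0.964). From day 3 to day 7 of the knockdown MX2 rose by 4.85 on the log2 scale (standard error 0.226, 95% interval 4.35 to 5.34, limma adjusted p = 6.34e-08), or 28.8-fold. The intervals of MX1 and MX2 did not overlap. MX2 FPKM was 10.2%, 11.0% and 8.93% of MX1 FPKM in the sh-Luci-3d libraries, 9.40%, 12.8% and 12.4% in sh-Ptbp1-3d and 61.0%, 62.4% and 56.6% in sh-Ptbp1-7d. The ratio at day 7 was above every ratio at day 3.

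GBP1, the guanylate-binding protein that coats the surface of bacteria in the cytosol, showed the largest rise of its family. It was at 6.46, 11.9 and 8.12 FPKM in sh-Luci-3d (8.82 ± 2.78, SD, n = 3), at 7.06, 7.99 and 10.2 FPKM in sh-Ptbp1-3d (8.42 ± 1.61) and at 79.4, 83.8 and 73.6 FPKM in sh-Ptbp1-7d (78.9 ± 5.09). The range of sh-Ptbp1-3d lay inside that of sh-Luci-3d, and both were far below day 7. Its log2 fold change was -0.04 for the knockdown at day 3 (standard error 0.197, 95% interval -0.47 to 0.40, limma adjusted p = 0.978) and 3.23 from day 3 to day 7 (95% interval 2.79 to 3.66, limma adjusted p = 4.06e-07), the latter a rise of 9.37-fold.

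GBP3, the neighbour of GBP1 in the cluster with a similar stretch at its promoter, rose less steeply and with little spread. Its libraries were at 10.4, 13.2 and 9.50 FPKM in sh-Luci-3d (11.0 ± 1.95, SD, n = 3), 9.14, 9.84 and 11.0 FPKM in sh-Ptbp1-3d (9.98 ± 0.914) and 50.6, 52.5 and 51.9 FPKM in sh-Ptbp1-7d (51.7 ± 0.985). The SD at day 7 was 1.91% of the mean, the smallest relative spread of the 6 tested members in that group. GBP3 showed a log2 fold change of -0.13 at day 3 (standard error 0.120, 95% interval -0.40 to 0.13, limma adjusted p = 0.833), and from day 3 to day 7 it rose by 2.36 (95% interval 2.10 to 2.63, limma adjusted p = 1.13e-07), or 5.15-fold. GBP1 and GBP3 share little sequence that could mix their reads: 54 of the 5037 stretches of 75 bases in GBP1 transcripts (1.07%) also occur in GBP3. A further 162 (3.22%) occur in GBP1P1, a pseudogene of GBP1, so that a part of the GBP1 reads cannot be placed with certainty.

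GBP2, another membrane-anchored member, was the most abundant guanylate-binding protein mRNA at day 3 and had, with GBP5, the smallest step among the tested members. It was at 21.7, 24.6 and 22.1 FPKM in sh-Luci-3d (22.8 ± 1.59, SD, n = 3), at 22.0, 22.5 and 21.6 FPKM in sh-Ptbp1-3d (22.0 ± 0.440) and at 40.5, 40.6 and 37.8 FPKM in sh-Ptbp1-7d (39.6 ± 1.57). The libraries of day 7 stood clear of those of day 3, but the step was smaller than the fold threshold. GBP2 showed a log2 fold change of -0.05 at day 3 (95% interval -0.22 to 0.12, limma adjusted p = 0.913) and of 0.84 from day 3 to day 7 (standard error 0.0764, 95% interval 0.68 to 1.01, limma adjusted p = 7.22e-06), or 1.80-fold, so that it passed the FDR and not the fold change. Of the 6239 stretches of 75 bases in GBP2 transcripts, 548 (8.78%) also occur in GBP7, which overlaps it, while GBP7 itself was listed below 0.1 FPKM in all 9 libraries.

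GBP5, a member that lowers the infectivity of enveloped viruses and supports inflammasome assembly, was close to 1 FPKM throughout. Its values were 0.560, 1.38 and 0.895 FPKM in sh-Luci-3d (0.946 ± 0.414, SD, n = 3), 1.08, 0.648 and 0.944 FPKM in sh-Ptbp1-3d (0.891 ± 0.221) and 1.94, 1.63 and 1.45 FPKM in sh-Ptbp1-7d (1.67 ± 0.246). All libraries of day 7 were above all libraries of day 3, by a narrow margin: the highest sh-Luci-3d library and the lowest sh-Ptbp1-7d library were 1.38 and 1.45 FPKM. The GBP5 log2 fold change from day 3 to day 7 was 0.86 (standard error 0.288, 95% interval 0.22 to 1.49, limma adjusted p = 0.0294), past neither the FDR nor the fold threshold, and at day 3 it was -0.03 (95% interval -0.66 to 0.61, limma adjusted p = 0.992). Without sh-Luci-3d replicate 2, the highest library of that group, GBP5 passed both thresholds at day 7 against the control, with a log2 fold change of 1.12 (adjusted p = 0.00702, limma).

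GBP4 was almost silent. It was listed at 0 in all 3 sh-Luci-3d libraries, at 0, 0 and 0.00831 FPKM in sh-Ptbp1-3d and at 0.0285, 0.0256 and 0.0879 FPKM in sh-Ptbp1-7d. All 3 libraries of day 7 had a value above 0 and so did a single library of day 3, but the values lie below the filter and were not tested.

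Counted over the tested members, 0 of 6 were called at day 3 against the control, where 0.0129% of all genes tested were called higher (2 genes) and 0% lower. In that comparison 0 of 6 members had an unadjusted limma p under 0.05, against 7.24% of all genes, and 0 of 6 passed the FDR alone, against 0.0193% of genes higher. None of the 6 had groups that did not overlap, against 5.86% of genes higher and 4.93% lower. The 95% intervals still allow changes at day 3, for example of MX1 down to a log2 fold change of -0.69 and of GBP5 up to 0.61. From day 3 to day 7 of the knockdown, 4 of 6 members were called higher (MX1, MX2, GBP1 and GBP3), against 8.31% of genes (1293 of 15551). With GBP2, 5 of 6 passed the FDR alone, against 20.3% of genes higher. All 6 had day 7 libraries above all sh-Ptbp1-3d libraries, against 35.3% of genes. The median log2 fold change of the 6 was 2.43, beside 0.09 over all genes tested.

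The comparison of sh-Ptbp1-7d with sh-Luci-3d uses the same libraries of day 7 and is therefore no separate evidence. Here the log2 fold changes were 2.23 for MX1, 4.78 for MX2, 3.19 for GBP1, 2.23 for GBP3, 0.80 for GBP2 and 0.83 for GBP5. The limma adjusted p was 5.15e-06 for MX1, 6.85e-08 for MX2, 4.33e-07 for GBP1, 1.67e-07 for GBP3, 1.07e-05 for GBP2 and 0.0337 for GBP5. Again 4 of 6 members were called higher, against 8.93% of genes, 5 of 6 passed the FDR alone, against 20.6%, and all 6 did not overlap, against 32.8%. Their median log2 fold change was 2.23, beside 0.10 over all genes. As a percent of the sh-Luci-3d mean, day 7 stood at 457% ± 16.0 for MX1, 2740% ± 174 for MX2, 895% ± 57.7 for GBP1, 468% ± 8.91 for GBP3, 174% ± 6.89 for GBP2 and 177% ± 26.0 for GBP5 (SD, n = 3 each).

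**Figure D2:**
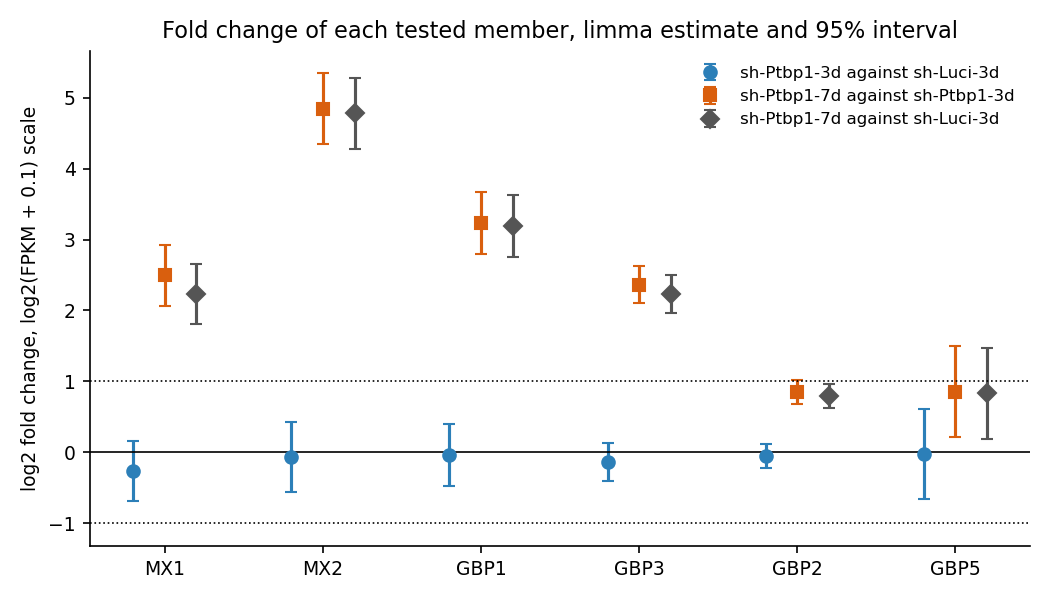
Log2 fold change of each tested member on the log2(FPKM + 0.1) scale in the 3 comparisons; points are limma estimates, bars 95% intervals, and dotted lines the fold threshold of 2 in each direction. The intervals for day 3 all include 0, and both comparisons with sh-Ptbp1-7d give MX2 the highest estimate and GBP2 and GBP5 the lowest.

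Because FPKM is scaled by length, levels can be set side by side between members. In sh-Luci-3d the order was MX1, GBP2, GBP3, GBP1, MX2, GBP5 and GBP4. In that group the ranges of MX1 and GBP2 overlapped, as did those of GBP3 and GBP1, although within each of the 3 libraries MX1 was above GBP2 and GBP3 above GBP1. In sh-Ptbp1-3d the order of means was the same, and GBP3 and GBP1 still overlapped and MX1 and GBP2 did not. In sh-Ptbp1-7d the order became MX1, MX2, GBP1, GBP3, GBP2, GBP5 and GBP4, and no neighbours in it overlapped. MX2 moved from the fifth place to the second, and GBP2 from the second to the fifth. Among all entries of the list, MX2 went from the 58.5th percentile of mean FPKM in sh-Luci-3d to the 97.5th in sh-Ptbp1-7d, while GBP5 went from the 46.9th to the 49.8th.

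The make-up of the guanylate-binding protein mRNA pool changed with these unequal steps. The summed FPKM of GBP1 to GBP5 was 39.1, 51.1 and 40.6 in the sh-Luci-3d libraries, 39.2, 41.0 and 43.7 in sh-Ptbp1-3d and 172, 178 and 165 in sh-Ptbp1-7d. GBP2 made up 52.7% ± 3.95 of it in sh-Luci-3d, 53.4% ± 3.48 in sh-Ptbp1-3d and 23.1% ± 0.405 in sh-Ptbp1-7d (SD, n = 3). GBP1 went the other way, with 19.9% ± 3.37, 20.3% ± 2.74 and 45.9% ± 1.15 (SD, n = 3) in the same order. GBP3 held 25.3% ± 1.66, 24.1% ± 0.879 and 30.1% ± 1.22 (SD, n = 3), and GBP5 stayed under 3% in every library. The ratio of GBP1 to GBP3 FPKM, the genes with the like promoter stretches, was 0.621, 0.898 and 0.855 in sh-Luci-3d, 0.773, 0.812 and 0.931 in sh-Ptbp1-3d and 1.57, 1.60 and 1.42 in sh-Ptbp1-7d. GBP3 was thus the more abundant of the pair in all 6 libraries of day 3 and GBP1 in all 3 of day 7. The summed MX FPKM was 0.658 to 1.07 times the summed GBP FPKM in sh-Luci-3d, 0.680 to 0.879 times in sh-Ptbp1-3d and 1.42 to 1.51 times in sh-Ptbp1-7d.

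**Figure D3:**
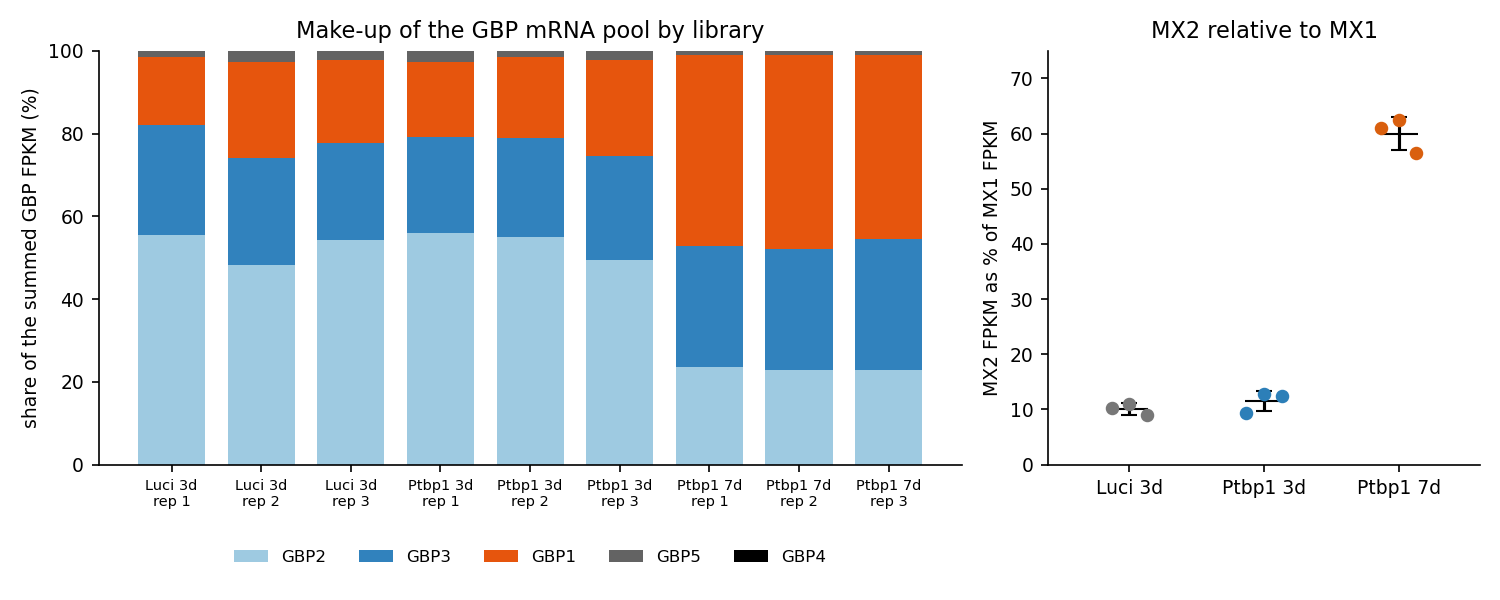
Left, the share of each gene in the summed GBP FPKM (%) of each of the 9 libraries, stacked to 100% (GBP4 is too small to see); right, MX2 FPKM as a percent of MX1 FPKM, with points for libraries and bars for the mean ± SD (n = 3). In the sh-Ptbp1-7d libraries GBP1 replaces GBP2 as the largest share, and MX2 stands at 56.6% to 62.4% of MX1.

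Within a group several members often had their highest value in the same library. How often this held over all genes was not counted, so it cannot be read as a trait of the members. In sh-Luci-3d, replicate 2 was the highest for 6 of the 6 detected members and replicate 1 the lowest for 5 of them. In sh-Ptbp1-3d, replicate 3 was the highest for 4 of 6 (MX1, MX2, GBP1 and GBP3) but the lowest for GBP2. In sh-Ptbp1-7d replicate 2 was the highest for 5 of 6. GBP5 was highest in replicate 1 of both knockdown groups. The SD was 28.0% of the mean for MX1 in sh-Luci-3d and 3.51% in sh-Ptbp1-7d. For GBP1 these were 31.5% and 6.45%, and for GBP2, the steadiest member at day 3, they were 6.97% and 3.96%. Over all 9 libraries, the Pearson correlation of log2(FPKM + 0.1) between MX1, MX2, GBP1, GBP2 and GBP3 ran from 0.976 to 0.998, and that of GBP5 with them from 0.797 to 0.843. These correlations describe 9 points that share the step from day 3 to day 7, as do those that follow.

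Among 11334 genes whose mean reached 1 FPKM, the closest in pattern to MX1 over the 9 libraries was SHFL, an interferon-induced inhibitor of translational frameshifting (r = 0.995), followed by TRIM22, an antiviral ubiquitin ligase, and HERC5, the ligase that attaches ISG15. For MX2 they were CSF1, the macrophage growth factor (r = 0.999), TRIM22 and APOL1. For GBP1 the closest was OAS2, a sensor of double-stranded RNA (r = 0.999), then MOB3C and IFIT2. GBP2 was nearest to TMEM140 (r = 0.998), PPM1K and NLRC5, and GBP3 to XAF1 (r = 0.998), IFIH1 and TENT5A. Such closeness was common: between 592 and 1042 genes correlated above 0.95 with each of these 5 members, and none did with GBP5, whose nearest gene was P2RY6 (r = 0.939). XAF1, APOL1 and GBP5 had means below 1 FPKM in both groups of day 3, so they entered only through the libraries of day 7.

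The genes of the pathway around the members were counted next, from lists set by role. These lists too were chosen with earlier results of these data known. Their counts beside the shares of all genes are therefore a description and not a test. At day 3 against the control, no gene of any of the 10 lists was called. In that comparison 2 of 15551 genes (0.0129%) were called higher and 0 lower, so the absence of calls says little about the lists. PTBP1 itself stayed below the fold threshold there (log2 fold change -0.85, limma adjusted p = 0.00314). The counts that follow are from day 3 to day 7 of the knockdown, in which 8.31% of all genes were called higher and 5.9% lower.

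Of 21 interferon genes, the ligands, 9 were listed at 0 in all 9 libraries and 2 passed the filter on low values. IFNG, the gene of interferon gamma, was among those at 0. IFNB1, a type I interferon, was listed at 0, 0 and 0 FPKM in sh-Luci-3d, at 0, 0.116 and 0 FPKM in sh-Ptbp1-3d and at 0.567, 0.294 and 0.762 FPKM in sh-Ptbp1-7d. It was called (log2 fold change 2.24, limma adjusted p = 0.00138), but it passed the filter only through the libraries of day 7. Its estimate ranged from 0.56 to 4.46 over the alternatives. The call held in 18 of 20 and was lost when the constant added to FPKM was 1 or 0.01 in place of 0.1. It thus depended on that constant. IFNE, the interferon of epithelia, stayed near 1 FPKM, with a log2 fold change of -0.07 (adjusted p = 0.809, limma).

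Of 6 genes of the type I receptor and ISGF3, 1 was called higher and 0 lower. STAT2 had 36.9, 40.8 and 39.7 FPKM in the libraries of day 3 of the knockdown and 115, 114 and 103 FPKM in those of day 7, and it rose by 1.50 on the log2 scale (limma adjusted p = 2.96e-07). IRF9, the DNA-binding partner in ISGF3, showed a log2 fold change of 0.86 (adjusted p = 0.00084, limma) and so stayed below the fold threshold. The receptor chains IFNAR1 and IFNAR2 had log2 fold changes of 0.29 and 0.29, with limma adjusted p = 0.0721 and 0.173. JAK1, the kinase that both receptors use, showed a log2 fold change of -0.59 (adjusted p = 0.000573, limma). Of 5 genes of the interferon gamma receptor and its signalling, 2 were called higher: the kinase JAK2 (log2 fold change 1.26, limma adjusted p = 2.32e-05) and IRF1, an interferon-induced transcription factor (1.93, limma adjusted p = 9.81e-07). IFNGR1 and IFNGR2 had log2 fold changes of 0.66 and 0.54 (limma adjusted p = 0.00109 and 0.0014), so that both passed the FDR and not the fold change. Against sh-Luci-3d the counts were the same, 1 of 6 and 2 of 5.

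All 15 targets that lean to type I interferon were called higher, with a median log2 fold change of 2.79. IFI6, an antiviral membrane protein that opposes apoptosis, went from a mean of 796 ± 57.7 FPKM to 11158 ± 540 FPKM (SD, n = 3), the highest level on the list. ISG15, the ubiquitin-like modifier, showed a log2 fold change of 2.08 (adjusted p = 9.07e-06, limma). XAF1, a promoter of apoptosis, had the largest log2 fold change, 6.10 (limma adjusted p = 2.15e-08), and OAS2 the next, 4.17 (limma adjusted p = 3.73e-07). MX1 at 2.50 lay inside the range of this list, which ran from 1.47 to 6.10, and so did MX2 at 4.85.

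Of 13 symbols of targets that lean to interferon gamma, 12 were listed (WARS is the older name of WARS1), 3 were listed at 0 in all libraries (CXCL9, HLA-DRB1 and HLA-DPA1) and 6 could be tested, of which 5 were called higher (IDO1, WARS1, SOCS1, CXCL10 and ICAM1). CXCL10 and ICAM1 passed the filter only through the libraries of day 7, where they are high, so that their calls add nothing to that count. IDO1, the tryptophan-degrading enzyme, rose by 5.14 on the log2 scale (limma adjusted p = 1.82e-08), from 0.302 ± 0.0850 to 13.9 ± 1.03 FPKM (SD, n = 3). WARS1, the tryptophanyl-tRNA synthetase, rose by 1.28 (limma adjusted p = 1.03e-06). The chemokine CXCL10 stood at 0, 0 and 0.0745 FPKM in sh-Ptbp1-3d and at 0.558, 0.627 and 0.624 FPKM in sh-Ptbp1-7d. The class II gene HLA-DRA and its partner CD74 stayed below 0.1 FPKM.

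Of 7 genes of negative feedback, 6 were tested, 2 were called higher and 1 lower, beside those 8.31% and 5.9% of all genes. USP18, which removes ISG15 and blocks IFNAR2, rose by 1.94 (limma adjusted p = 1.63e-07), and SOCS1, an inhibitor of the JAK kinases, by 1.36 (limma adjusted p = 0.000596). PTPN11, a phosphatase, showed a log2 fold change of -1.08 (adjusted p = 4.06e-05, limma) and was the call to the lower side. USP18 and SOCS1 also stand in the target lists above.

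On the list named for other interferon-inducible GTPases, the GTPases themselves gave little signal. Whether each of them answers to interferon in these cells was not tested. GBP6 and GBP7 were below 0.1 FPKM and IRGM below 0.3 FPKM in every library, and IRGQ showed a log2 fold change of -0.22 (adjusted p = 0.138, limma). The 2 calls on that list of 3 tested genes were NLRC5 (2.16, limma adjusted p = 8.92e-07) and RTP4 (6.15, limma adjusted p = 4.08e-07). Neither is a large GTPase: NLRC5 drives MHC class I genes and RTP4 is a chaperone of receptors, both interferon-induced.

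The dynamin relatives, which share the dynamin fold with the members and are not known as interferon targets, had 1 gene of 14 called higher and 3 lower, beside 8.31% and 5.9% of all genes, and a median log2 fold change of -0.27. DNM2, the ubiquitous dynamin of endocytosis, was the most abundant of them at day 7 and showed a log2 fold change of 0.20 (adjusted p = 0.0723, limma), and EHD2, a membrane-bending ATPase of caveolae, had -0.60 (limma adjusted p = 6.01e-05). The lower calls were DNM3 (-1.30, limma adjusted p = 0.00988), EHD1 and ATL3, and the higher call was EHD3, which was below 0.4 FPKM in every library. The call of DNM3 held in 10 of 21 alternatives and that of EHD3 in 5 of 20.

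Enzymes and partners that act on the GBP proteins were not called in either direction, 0 of 7. FNTA, the subunit shared by the enzymes that attach the lipid anchor, showed a log2 fold change of 0.57 (adjusted p = 0.000399, limma), and ARHGDIA, an inhibitor that binds lipid-anchored GTPases, one of -0.49 (limma adjusted p = 0.00463). PIM1, a kinase that holds GBP1 in the cytosol, had -0.92 (limma adjusted p = 0.000216).

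Of 10 genes of cell-autonomous immunity in which GBPs take part, 8 were tested and 5 were called higher. APOL3, a detergent-like protein that acts with GBP1 on bacteria, rose by 4.94 (limma adjusted p = 3.60e-06), from 0.256 ± 0.241 to 9.48 ± 1.11 FPKM (SD, n = 3). CASP1, the inflammasome protease, rose by 4.76 (limma adjusted p = 7.78e-08), from 0.927 ± 0.194 to 27.5 ± 1.25 FPKM (SD, n = 3). The enzymes that conjugate ISG15 rose as well, UBE2L6 by 3.80 (limma adjusted p = 6.07e-07) and HERC5 by 1.73 (limma adjusted p = 8.19e-06). CASP4 was the fifth call, and AIM2 and CASP5 were near 0. No member of the list was called lower, but IL18, at -0.64, passed the FDR alone to the lower side (limma adjusted p = 0.00155). GSDMD and RNF213 had log2 fold changes of 0.17 and 0.53 (limma adjusted p = 0.42 and 0.019) and were not called.

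**Figure D4:**
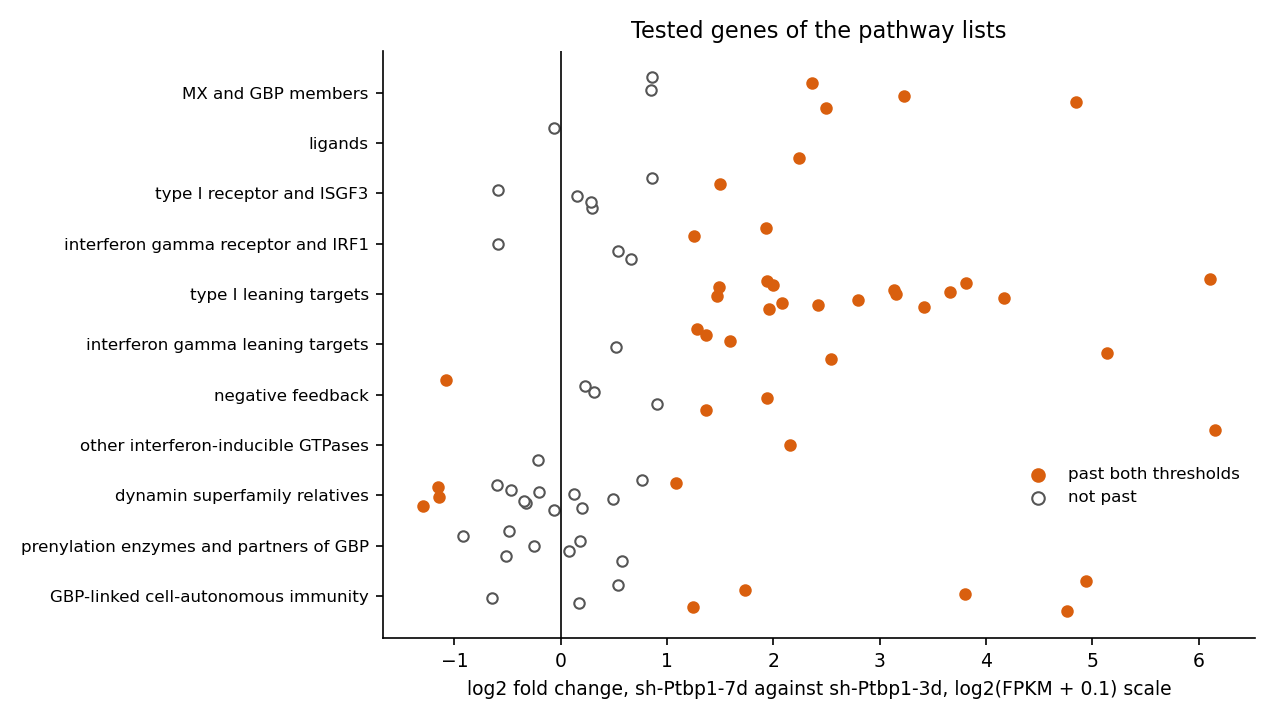
Log2 fold change from sh-Ptbp1-3d to sh-Ptbp1-7d of every tested gene of the members and of the 10 lists, on the log2(FPKM + 0.1) scale; filled points passed both thresholds and open points did not. IFNB1, CXCL10 and ICAM1 are drawn filled, but they passed the filter on low values only through the libraries of day 7. Their points therefore add no support. The targets leaning to type I interferon all lie above 1, while the dynamin relatives lie on both sides of 0.

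The genes on either side of the clusters were compared in the same way. Of the genes beside the GBP cluster, KYAT3 and LRRC8C had log2 fold changes of -0.15 and -0.37 from day 3 to day 7 (limma adjusted p = 0.366 and 0.0718), and RBMXL1 and LRRC8B had 0.66 and 0.99 (limma adjusted p = 0.00137 and 0.00103), both under the fold threshold. Beside the MX pair, BACE2 had 0.36 (limma adjusted p = 0.0102), and FAM3B, TMPRSS2 and RIPK4 were below 0.2 FPKM in every library. None of these neighbours was called in that comparison, while from the control to day 7 RBMXL1 was called higher (log2 fold change 1.03, limma adjusted p = 6.36e-05). GBP2 and GBP5, within the cluster, stayed under the fold threshold as well, and GBP4 between them was near 0.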

How the data were processed

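RNA of U251 cells was sequenced by the authors on Illumina HiSeq, in 9 libraries of 3 groups that the sample labels give. From filtered reads compared with a reference, the authors made and deposited a table of FPKM for each gene in each library, and coordinates of loci assembled by StringTie. The submitters' processing notes name HISAT2 and GRCh38, and the counting program and the strand setting are not given in the sources used here, so that antisense reads cannot be told apart. No column lacked a sample. The most common ratio of low values between 2 libraries held at most 0.861% of genes over 36 library pairs, so no whole-read steps exist and the depth is unknown.

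From the FPKM values, log2(FPKM + 0.1) of the 15551 genes whose mean reached 0.1 FPKM was fitted by limma 3.58.1 (R 4.3.3) using 9 libraries in one model, an intensity trend and Benjamini-Hochberg adjustment. The thresholds at day 3, and from day 3 to day 7 of the knockdown, are those of the study's methods. The study names no comparison of day 7 with the control, so the latter thresholds were reused there. At day 3 the paper reports many more differing genes, in both directions, than the 2 called here. The cause of that gap was not tested. The model was tested with seeded values of known answers. Of the symbols, 97.6% are in GENCODE v29. Same-numbered libraries did not deviate together, so no pairing was used. Members and lists were chosen with earlier results of these data known, and 2 listed genes are not reported here. From each list, up to 4 genes were named, the 2 highest at day 7 and the 2 with the largest absolute change from day 3 to day 7, except that any detected gene of the ligand, receptor and interferon-inducible GTPase lists could be named. CASP4, IL18, GSDMD, RNF213, ICAM1, EHD3, ATL3, genes given as listed at or near 0 and the neighbours of the clusters were named after their values were seen. Alternatives were other pseudocounts, filters, scalings, thresholds and models, a replicate block and leaving out each library. Figures were drawn with matplotlib 3.10.9.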

Additional observations from a re-analysis of the deposited data

How the results depend on the processing

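For the knockdown at day 3 against the control, 0 members were called under the 21 alternatives of fit, scaling, filter, threshold and left-out library. From day 3 to day 7 of the knockdown the count was 4 under all 21, with log2 fold changes of 2.41 to 2.64 for MX1, 4.50 to 5.05 for MX2, 3.10 to 3.37 for GBP1 and 2.26 to 2.47 for GBP3, and it was 5 with the FDR alone. For day 7 against the control it was 4 to 5, with 5 for the FDR alone and without sh-Luci-3d replicate 2. In the comparison of day 3, where no member was called, the sign turned when single libraries were left out: the log2 fold change ran from -0.31 to 0.13 for MX2, -0.24 to 0.20 for GBP1, -0.081 to 0.0093 for GBP2, -0.23 to 0.0019 for GBP3 and -0.32 to 0.26 for GBP5. It was above 0 for all 5 without sh-Luci-3d replicate 2, the library highest in all of them. MX1 stayed below 0, from -0.52 to -0.13.

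Over all genes, the day 3 comparison called 2 genes, and 59 without sh-Luci-3d replicate 3; the cause was not tested. A pseudocount of 1 in place of 0.1 called 1255 in place of 2211 genes from day 3 to day 7 of the knockdown, and 1269 in place of 2271 from the control to day 7. In units of TPM the median log2 fold change of all genes moved from 0.09 to 0.19 in the former. With the replicate block, which the labels' numbers allow, members called were 0, 4 and 4. Same-numbered libraries correlated in their deviations at -0.0317 to 0.0512 and others at -0.0729 to 0.0608, so the numbers do not pair the libraries. Unknown depth limits what the values of GBP4, GBP5 and IFNB1 can show, and 3 libraries per group limit the comparison of day 3.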
